A study of Homo sapiens with 5 samples.

Results

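FXYD2, PROM2, RBM23, CACNG5 and JMJD6 are 5 of the 20033 protein-coding genes in GENCODE release 44 on GRCh38 (hg38). They were picked because they lie at or beside high HSF1 peaks and encode no chaperone, so the genes were chosen by their HSF1 heights, which are given here as a description, with no test. For each gene, every called peak from 50 kb upstream to 50 kb downstream was collected from 4 lists. The lists come from CUT&RUN, in which an antibody brings a nuclease to a DNA-bound protein and the released fragments are sequenced, in OVCAR8, an established human ovarian carcinoma line. The samples were 2 HSF1 libraries, 2 MYC libraries and 1 IgG control, all of proliferating cells with no treatment named, with 500000 cells per reaction fixed in 1% formaldehyde for 1 minute. The labels do not say whether the replicates were separate cultures. The antibody libraries held between 8265647 and 10084407 fragments, the IgG library held 9306942, and all 4 lists were called by the authors against that same IgG library.

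HSF1 is the main transcription factor of the heat shock response. It binds as a trimer to the heat shock element, in which short GAA units alternate with their inverted form TTC, and it is best known for inducing chaperones. MYC binds with its partner MAX to the E-box CACGTG and occupies many active promoters in cancer cells. None of the 5 genes is a classical heat shock gene. FXYD2 encodes the gamma regulatory subunit of the sodium-potassium pump, PROM2 the membrane glycoprotein prominin-2, RBM23 an RNA-binding protein linked to splicing, CACNG5 an auxiliary subunit of AMPA-type glutamate receptors, and JMJD6 an iron- and 2-oxoglutarate-dependent lysyl hydroxylase.

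The sequences under the HSF1 summits are shown because the genes differ in them. A heat shock element was counted as 3 units in alternating orientation over 13 bp, GAA, TTC, GAA or TTC, GAA, TTC with 2 free bases between units, searched on both strands within 100 bp of the summit of the higher HSF1 replicate. At each gene the leading site is the merged HSF1 peak, called in both HSF1 lists, with the highest mean fold enrichment in the window. The element was present at 4 of the 5 leading sites, those of FXYD2, PROM2, RBM23 and JMJD6, while it was present at 10.1% of all 2141 HSF1 sites called in both lists (25.2% anywhere in the merged peak, where the 5 genes again had it at 4) and at 0.235% of the start sites of protein-coding genes. The count of 4 was not tested. The plus strand of GRCh38 is shown 5′ to 3′, with each unit of the run in capitals, at chr11:117818401-117818429, chr2:95278372-95278400, chr14:22919148-22919176 and chr17:76726608-76726636 in turn.
FXYD2: atgGAAcaTTCtaGAAcaTTCtaGAAacg
PROM2: ctggagtgGAAggTTCcaGAAggaaggaa
RBM23: ctgccgtcTTCcaGAAccTTCcccaatct
JMJD6: aagtcgccTTCcaGAAaaTTCactcccca

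The FXYD2 run was the longest of the 4, with 5 units over 23 bp that contain 3 overlapping elements, while the other runs had 3 units. A run of 5 or more units lay near the summit of 0.467% of all HSF1 sites, which is 10 sites, and near 0.00998% of start sites. Of the 50 highest HSF1 sites, 1 had such a run, the site at FXYD2. The elements lay 33 and 77 bp from the summits of HSF1 replicates 1 and 2 at PROM2, 38 and 85 bp at RBM23, and 41 and 36 bp at JMJD6. At FXYD2 the middle of the run was 86 bp from the summit of replicate 1 and 149 bp from that of replicate 2, so by the replicate 2 summit alone it falls outside the 100 bp searched.

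CACNG5 differed from the other genes in having no element. No 13 bp match was present within 100 bp of the higher summit even with 1 mismatch allowed, a looser search that 25.4% of all HSF1 sites passed. The longest run in the merged peak had 2 units and lay 380 and 383 bp from the HSF1 summits. The sequence at chr17:66905211-66905293, plus strand, is shown because the summits of all 4 libraries fall in it. Its 4 capitals mark, from left to right, the summits of MYC replicate 1, MYC replicate 2, HSF1 replicate 1 and HSF1 replicate 2, which span 42 bp.
CACNG5: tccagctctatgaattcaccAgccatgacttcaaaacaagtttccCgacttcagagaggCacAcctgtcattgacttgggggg

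The heights did not all match the description of strong sites. By mean fold enrichment over the replicates, the leading sites ranked 1 (FXYD2), 4 (CACNG5), 17 (PROM2), 106 (RBM23) and 725 (JMJD6) among the 2141 HSF1 sites. JMJD6 was therefore not among the highest HSF1 peaks in these lists, with a mean fold enrichment of 7.79 against 94.9 at FXYD2. Nor were the 5 genes all of the high sites outside chaperones, since only 2 of the 10 highest sites were theirs and 3 of those 10 lay at promoters of the chaperone or cochaperone genes ST13, FKBP4 and DNAJB6.

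At FXYD2 the HSF1 peak at chr11:117817612-117819351 had a pileup, the number of fragments covering the summit, of 199 in replicate 1 and 149 in replicate 2. Per 1000000 fragments of the library (FPM) these are 19.8, with a 95% exact Poisson interval of 17.2 to 22.8, and 17.1, with an interval of 14.5 to 20.1. The intervals overlapped, and like all intervals here they cover counting error alone, not variation between libraries. The fold enrichment over the IgG background was 112 and 77.4, the highest in the list of replicate 1 and the fourth highest in that of replicate 2. Although both summits lie inside the annotated FXYD2 gene, 10.2 and 10.4 kb downstream of its first start site, they lie outside its canonical transcript. The element falls in an exon of 1 FXYD2 transcript and an intron of 1 other. The nearest protein-coding start site was that of DSCAML1, a neural cell adhesion gene, 976 and 741 bp from the summits, and the start of the lncRNA ENSG00000254844 was 58 and 177 bp away.

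Values of HSF1 and MYC are given side by side and do not rank the factors, since the antibodies and thresholds differ and the median pileup of a called peak was 11 and 10 in the HSF1 lists and 25 in both MYC lists. MYC was called at the FXYD2 site only in replicate 2, from 117817973 to 117818284, with a fold enrichment of 10.7. Its summit signal was 2.68 FPM (1.76 to 3.90). The MYC summit was 407 and 172 bp from the HSF1 summits. In MYC replicate 1 the nearest called peak was 99565 bp away. The merged peak held 2 E-boxes, CACGTG, and neither lay within 100 bp of an HSF1 summit. An E-box lay within 100 bp of 5.88% of start sites.

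**Figure D1:**
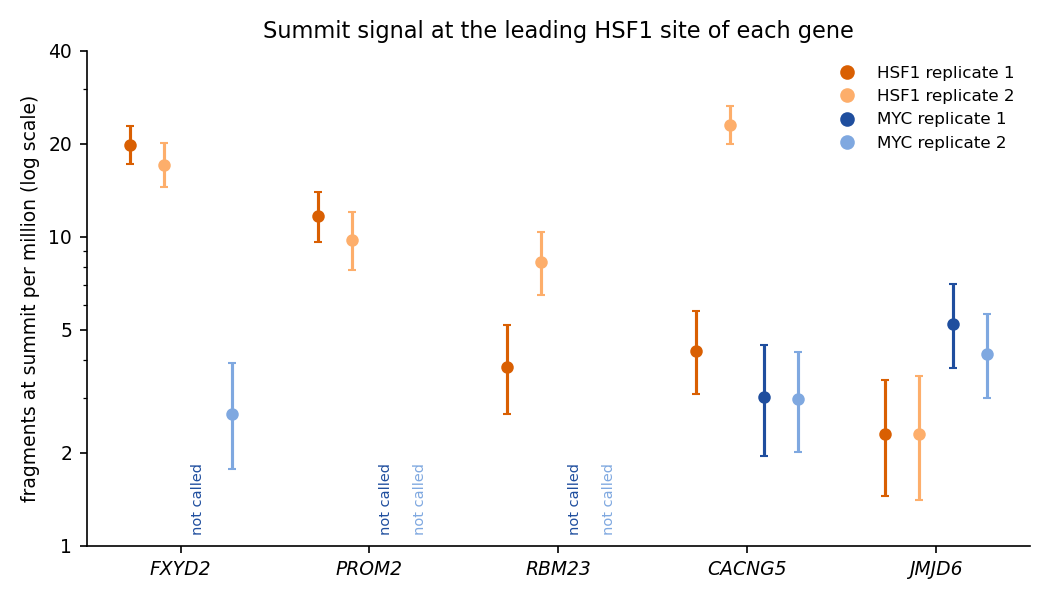
FPM at the summit (log scale) at the leading HSF1 site of each gene, by library, with 95% exact Poisson intervals for counting error and "not called" where a list has no peak. The HSF1 replicates overlap at FXYD2, PROM2 and JMJD6 and stand apart at RBM23 and CACNG5. MYC is called in both lists at CACNG5 and JMJD6.

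At PROM2 the HSF1 peak at chr2:95277769-95279081 had 117 fragments at the summit in replicate 1 and 85 in replicate 2, or 11.7 FPM (9.64 to 14.0) and 9.75 FPM (7.78 to 12.1). These overlapped. The order of the replicates turned on the fold enrichment scale, at 37.4 and 44.4, since the background that the fold implies was 2.16 fragments in replicate 1 and 0.937 in replicate 2. The summits lay 3904 and 4014 bp downstream of the first PROM2 start, in intron 8 of the canonical transcript and 110 bp apart, and 537 and 647 bp downstream of the start of another PROM2 transcript. The element is intronic in 5 transcripts and exonic in 1. MYC was called here in neither list, the nearest MYC peaks being 13755 bp away in replicate 1 and 36672 bp away in replicate 2. Of the 16 sites ranked above PROM2, 2 were likewise free of a call in both MYC lists.

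Another motif recurred near the PROM2 summits, noticed after the sequences had been seen. TGANTCA, the consensus of the AP-1 factors, occurred 3 times in the peak when searched on both strands. The middles of the copies lay 42, 1 and 203 bp from the summit of replicate 1. From the summit of replicate 2, the higher by fold enrichment, they lay 152, 109 and 93 bp away. At least 1 copy lay within 100 bp of the higher summit at 16.8% of all HSF1 sites and near 3.9% of start sites. Only PROM2 among the 5 genes had one by that measure, through the copy 93 bp from the replicate 2 summit. The 2 copies nearest its replicate 1 summit did not count by it. FXYD2 had one 78 bp from its lower summit, that of replicate 2. The stretch at chr2:95278333-95278483, plus strand, runs from just before the summit of replicate 1 to just after that of replicate 2. It is shown with 1 TGANTCA copy and the heat shock element in capitals. That copy is the one 1 bp from the replicate 1 summit and 109 bp from the replicate 2 summit.
PROM2: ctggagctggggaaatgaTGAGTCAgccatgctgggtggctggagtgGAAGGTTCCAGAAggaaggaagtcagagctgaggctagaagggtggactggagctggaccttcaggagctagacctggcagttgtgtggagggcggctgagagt

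At RBM23 the HSF1 peak at chr14:22918280-22919478 lay at the start of the gene, with summits 58 and 105 bp downstream of the first start site and in exon 1 of the canonical transcript. The summit pileup was 38 in replicate 1 and 72 in replicate 2. This was 3.78 FPM (2.68 to 5.19) and 8.26 FPM (6.46 to 10.4), intervals that did not overlap, and the fold enrichment was 12.3 and 29.6. The signal of replicate 2 was 2.18 times that of replicate 1, where the median over all HSF1 sites was 1.15 and 143 sites had a higher ratio. The element lies in the UTR of 4 RBM23 transcripts, none of them the canonical one, and upstream of the canonical start. An antisense lncRNA, PRMT5-AS1, starts 177 and 130 bp from the summits on the other strand, with 1 exon over the element, and the lists carry no strand with which to tell the pair apart. MYC was called in neither list, although the nearest MYC peaks were only 6975 and 9378 bp away. Among the 105 sites ranked above RBM23, 15 had no MYC call in either list.

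At CACNG5 the HSF1 peak at chr17:66904772-66905781 was intergenic, its summits 10519 and 10522 bp past the gene's end and 70.2 kb from its first start. The nearest annotated start, that of another CACNG5 transcript, was 27997 and 28000 bp away. The replicates differed more here than at any other of the 5 sites. Replicate 1 had 43 fragments at the summit and replicate 2 had 201, or 4.28 FPM (3.10 to 5.77) and 23.05 FPM (19.97 to 26.5). The ratio was 5.38, and only 2 of the 2141 HSF1 sites had a higher one. The fold enrichment was accordingly 18.4 in replicate 1 and 90.4 in replicate 2, where it was the highest of that list, while it ranked 98 in replicate 1. Rank 4 thus rests on replicate 2. The implied background was near the same in both, at 1.39 and 1.23 fragments, and the summits were 3 bp apart.

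MYC was called at the CACNG5 site in both lists, with fold enrichments of 11.4 and 11.7. The MYC signal was 3.02 FPM (1.96 to 4.46) in replicate 1 and 2.97 (2.01 to 4.25) in replicate 2, intervals that overlapped. No E-box and no TGANTCA copy lay in the merged peak. All 4 libraries called a peak at this place and none called another anywhere in the CACNG5 window.

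**Figure D2:**
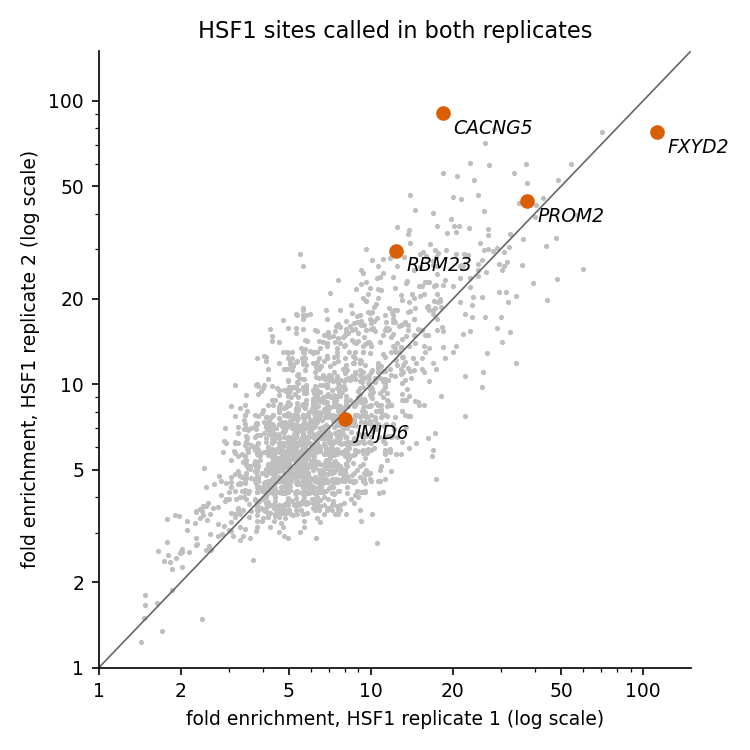
Fold enrichment over the IgG background in HSF1 replicate 1 (x axis) and replicate 2 (y axis), both log scales, for the 2141 HSF1 sites called in both lists (grey), with the leading sites of the 5 genes in orange and the line of equal values. FXYD2 lies at the far right at 112 and 77.4, CACNG5 far above the line at 18.4 and 90.4, and JMJD6 within the bulk of the sites at 8.02 and 7.57.

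At JMJD6 the HSF1 peak at chr17:76726382-76726741 was lower and narrower than the others, at 360 bp. Replicate 1 had 23 fragments at the summit and replicate 2 had 20, both 2.29 FPM, with intervals of 1.45 to 3.44 and 1.40 to 3.54. The fold enrichments were 8.02 and 7.57. The replicates thus agreed within counting error, and their summits were 5 bp apart. The site was promoter-proximal, 136 and 141 bp downstream of the first JMJD6 start and 57 and 52 bp upstream of the canonical one. METTL23, which encodes an arginine methyltransferase and is transcribed in the opposite direction, starts 167 and 172 bp away. The element lies in the UTR of 4 JMJD6 transcripts, none of them the canonical one, and upstream of the canonical start.

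Both MYC lists covered the whole 360 bp at JMJD6. MYC replicate 1 had 5.202 FPM (3.76 to 7.01) and MYC replicate 2 had 4.16 FPM (3.002 to 5.63), intervals that overlapped. The fold enrichments were 15.9 and 11.6. Within their own lists these peaks stood at the 73.4 and 62.0 percentiles of fold enrichment, and the HSF1 peaks at the 87.7 and 78.6 percentiles of theirs. In MYC replicate 1 the summit was 32 and 27 bp from the HSF1 summits. In replicate 2 it was 349 and 354 bp away, in an exon of METTL23, and had the only E-box within 100 bp of a MYC summit at the 5 leading sites. E-boxes lay this close to 6.74% and 6.82% of all peaks in the 2 MYC lists.

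**Figure D3:**
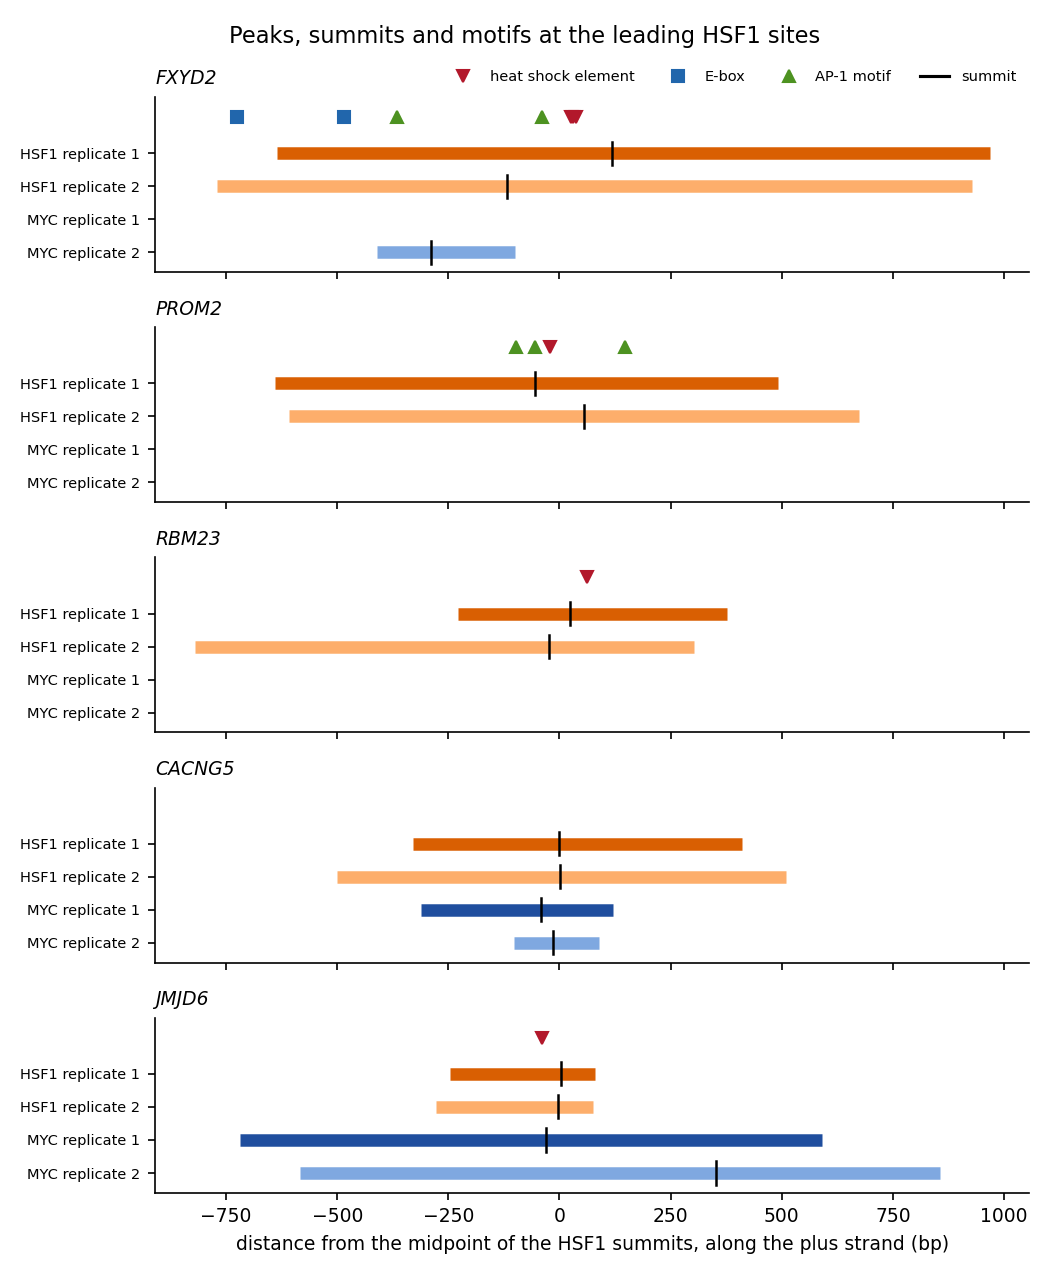
Called peaks (bars), their summits (black ticks) and motif matches (symbols, top row of each panel) at the leading HSF1 sites, against distance in bp from the midpoint of the 2 HSF1 summits along the plus strand. The heat shock element sits close to the summits at PROM2, RBM23 and JMJD6 and between them at FXYD2, and CACNG5 has no motif match.

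Over the 5 leading sites, a MYC peak overlapped by at least 1 bp at 3, those of FXYD2, CACNG5 and JMJD6, against 65.5% of all HSF1 sites with a peak of either MYC list. MYC replicate 1 overlapped 2 sites (64.9% of all), replicate 2 overlapped 3 (42.2% of all) and both overlapped 2 (41.6% of all). These counts are too small to set the 5 sites apart from the rest, and no test was made. From the same data, the paper gives PROM2 and RBM23 as examples with HSF1 only and JMJD6 as an example with both. The MYC calls at these genes are therefore no independent finding. HSF1 peaks were called at a p-value of 1e-04 and MYC peaks at 1e-10, and the lowest MYC peaks called had 1.21 and 1.09 FPM. Missing MYC at PROM2 and RBM23 therefore means no call at that threshold and depth.

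Over all HSF1 sites the same measures differed with height, as a description, with cover by MYC meaning an overlap of at least 1 bp. Of the 50 highest, 22.0% had an element and 70.0% were covered by both MYC lists, with 10.0% covered by neither. Between them, 18% of the sites ranked 51 to 200 had an element, 44.7% were covered by both and 30.0% by neither, and for ranks 201 to 1000 the shares were 14.3%, 33.5% and 40.9%. Of the 1141 lowest, 5.70% had an element, 45.6% were covered by both and 31.6% by neither. The share with an element fell from group to group, while MYC cover followed no single order, with the lowest share covered by both at ranks 201 to 1000. The median site width also fell, at 1380, 1015.5, 633 and 443 bp from the highest group to the lowest, and was not adjusted for. FXYD2, PROM2 and CACNG5 belong to the first group, RBM23 to the sites ranked 51 to 200 and JMJD6 to those ranked 201 to 1000. PROM2 was thus 1 of 5 sites among the 50 highest with no MYC call.

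**Figure D4:**
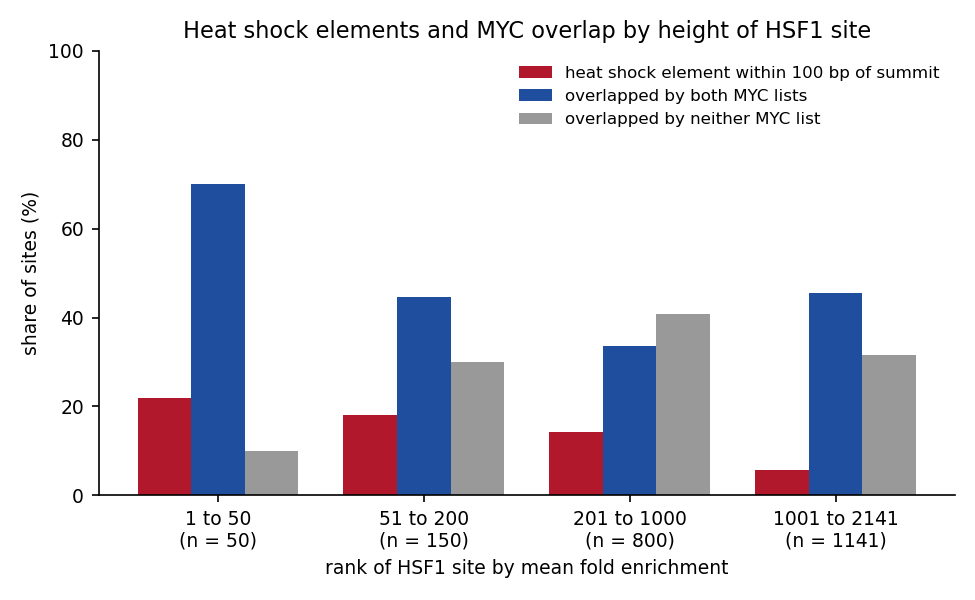
Share of HSF1 sites (%) with a heat shock element within 100 bp of the higher summit (red), overlapped by both MYC lists (blue) or by neither (grey), by rank in mean fold enrichment, with the number of sites under each group. Elements fall from 22.0% of the 50 highest sites to 5.70% of the 1141 lowest, while the share without MYC is smallest in the highest group, at 10.0%, and largest at ranks 201 to 1000, at 40.9%.

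The windows of the 5 genes held 56 peaks, which merged into 26 places. HSF1 alone was called at 9 places, MYC alone at 7 and both factors at 10, of which 6 were in all 4 lists. The 1 such place in the RBM23 window holds HSF1 peaks that do not overlap each other and are joined by the MYC peaks. At 11 places a peak was called in a single list. Over the whole lists, 34% and 48.3% of the peaks of HSF1 replicates 1 and 2 and 46.9% and 92.6% of those of MYC replicates 1 and 2 were also in the list of the other replicate. By construction all 5 windows held an HSF1 site called in both lists, as did 15.6% of all protein-coding genes (35.6% with a peak in replicate 1 and 27.7% in replicate 2). A MYC peak was called in 4 windows in replicate 1 (82% of all genes), in 5 in replicate 2 (67.2%) and in 4 in both lists (66.1%). FXYD2 was the exception, with no MYC peak of replicate 1.

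The FXYD2 window had 8 peaks at 6 places, and besides the leading site all were low HSF1 peaks of a single list. Their pileups were 5 to 9 fragments and their fold enrichments 3.48 to 5.08. One of them, in replicate 2, lay 120 bp upstream of the first FXYD2 start, with a fold enrichment of 3.61, and no MYC was called there.

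In the PROM2 window, 15 peaks lay at 7 places. All 4 libraries had a peak at KCNIP3, which encodes a calcium-binding potassium channel partner and transcriptional repressor, at chr2:95315205-95317319. HSF1 fold enrichments there were 7.75 and 5.77 and MYC ones 19.1 and 8.62. A second place inside KCNIP3, at chr2:95333583-95334296, was also in all lists, at 4.96 and 3.89 for HSF1 and 23.6 and 7.29 for MYC. MYC was thus called at both KCNIP3 places in both lists, whereas at the leading PROM2 site it was called in neither. Between the genes, at chr2:95292836-95293164, HSF1 replicate 2 (6.49) and MYC replicate 1 (8.51) had 1 peak each.

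The RBM23 window was the most crowded, with 16 peaks at 7 places. Its highest MYC peak was over an exon of REM2, a small GTPase gene, at chr14:22886511-22887539, with fold enrichments of 45.0 and 24.1, ranks 81 and 405 in the MYC lists. HSF1 had fold enrichments of 4.20 and 5.68 at REM2, and its peaks in the replicates did not overlap each other. The promoters of LRP10, an endocytic receptor, and PRMT5, an arginine methyltransferase, each had MYC in both lists and HSF1 in replicate 1 only. At LRP10 the values were 25.4 and 13.3 for MYC and 4.37 for HSF1. At the PRMT5 start shared with PRMT5-DT they were 9.81 and 12.5 for MYC and 3.80 for HSF1. HAUS4, which encodes an augmin subunit of the mitotic spindle, had MYC alone, at 14.7 and 8.23. The neighbor places named so far all had MYC in both lists, most of them with HSF1 in at least 1. At 2 further places only MYC replicate 1 had a peak. They were chr14:22853026-22853582, between genes (13.4), and chr14:22926453-22926699, at another PRMT5 start (6.43). The RBM23 promoter, chosen by its HSF1 height, had HSF1 in both lists and MYC in neither.

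The JMJD6 window had 13 peaks at 5 places, and MYC was called at each. A place inside MXRA7, a matrix remodeling associated gene, at chr17:76709088-76710467 had all 4 libraries. It lay at the promoter of the gene ENSG00000277382, its summits 152 to 246 bp from an MXRA7 start, with HSF1 at 6.52 and 5.82 and MYC at 27.4 and 11.4. The promoter region between MFSD11 and SRSF2, a splicing factor gene, had MYC alone, at 17.4 and 9.53. So did the promoter of the lncRNA ENSG00000261335, at 22.6 and 6.41. No heat shock element was present at any of the HSF1 places besides the leading sites in the 5 windows.

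**Figure D5:**
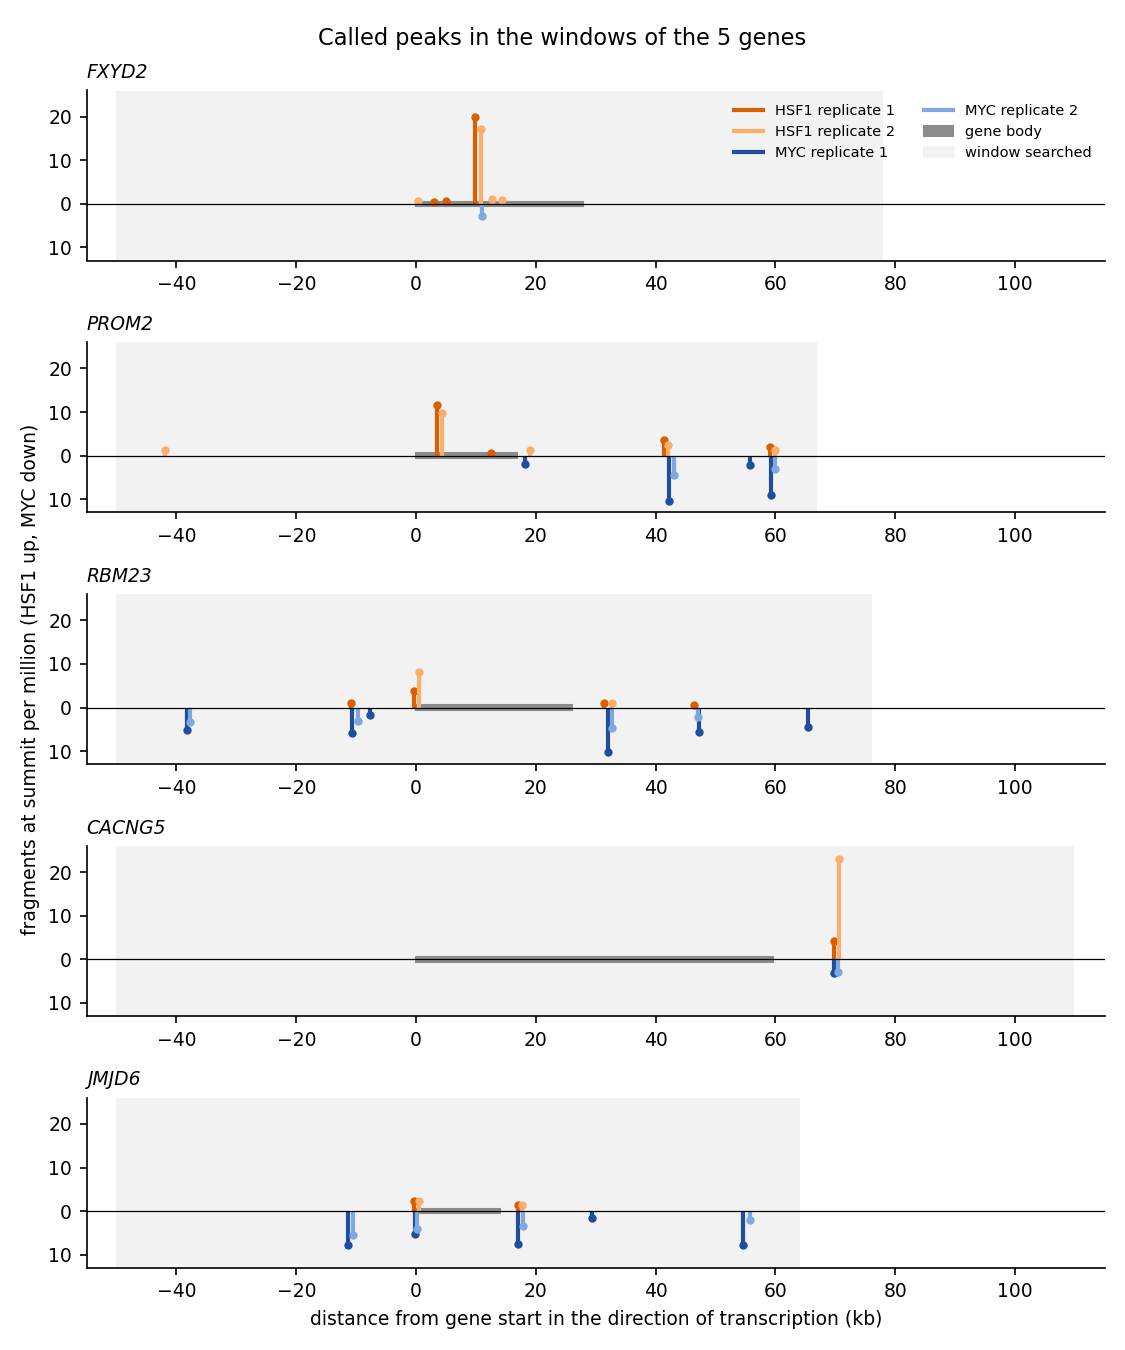
FPM at the summit for every called peak, HSF1 upward and MYC downward, against distance in kb from the gene start in the direction of transcription, with the gene in dark grey and the window searched in light grey. Replicates are drawn slightly apart. HSF1 stands out at 1 place in the windows of FXYD2, PROM2, RBM23 and CACNG5, and the JMJD6 window has HSF1 peaks at 2 places, both also called for MYC.

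Relatives of the 5 genes were counted in the same way. The list held 20 paralogs and related genes. They were the other FXYD and CACNG genes, PROM1, RBM39, and JMJD4, JMJD7, JMJD8, HIF1AN and KDM8 from the JmjC family. An HSF1 site in both lists lay within 50 kb of 2 of the 20 genes, against the 15.6% of all genes. FXYD6 is one of these, but through the leading site of FXYD2, whose window it shares. FXYD4 is the other, with HSF1 at 12.4 and 12.2 and MYC at 37.5 and 29.3. Peaks of HSF1 replicate 1 lay near 7 of the 20 (35.6% of all genes) and those of replicate 2 near 3 (27.7%). MYC was called near 17 in replicate 1 (82% of all genes), 14 in replicate 2 (67.2%) and 13 in both (66.1%), shares close to those of all genes. The 20 genes are not independent, since neighbors share windows and 1 peak can count for several. This holds for CACNG6, CACNG7 and CACNG8, and for FXYD1, FXYD3, FXYD5 and FXYD7. Within 10 kb, none of the 20 had an HSF1 site in both lists (8.15% of all genes) and 9 had MYC in both (50.9%). Within 50 kb, PROM1 had MYC in replicate 1 alone (highest fold enrichment 12.2). RBM39, a splicing coactivator, had MYC in both lists (highest 23.3 and 14.5). Neither had HSF1.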

How the data were processed

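CUT&RUN of OVCAR8 cells was analysed from 4 peak lists. Per the labels and the study's methods, the authors demultiplexed reads with bcl2fastq 2.20.0, then trimmed and aligned them to GRCh38/hg38 (Bowtie 2), with peak calling by MACS 2.2.9.1. Per the file headers, each library was called alone against IgG replicate 2 (the labels list 1 unnumbered IgG sample), with duplicate fragments reduced to 1 copy and p-value limits of 1e-04 (HSF1 lists) and 1e-10 (MYC lists). The authors deposited for each peak the pileup (a signal, fragments over the summit), the fold enrichment (the summit pileup in ratio to IgG or the genome average) and the −log10 p-value. The headers state that the larger library is scaled to the smaller, but all pileups were whole numbers with a constant relation to the fold at peaks on the genome background, so they were read as unscaled and divided by each antibody library's fragments. The IgG library entered only through these calls.

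Peaks on chromosomes 1 to 22, X and Y were used, 6421 and 4459 for HSF1 and 25623 and 13278 for MYC. Sites were merged over replicates with 1 bp of overlap and ranked by mean fold enrichment. Promoters ran from 1000 bp upstream to 100 bp downstream of a start. Python 3.11.15 was used with pandas 2.3.3, numpy 2.4.6, scipy 1.17.1, pysam 0.24.0 and matplotlib 3.10.9, and sequences were read from GRCh38. Overlap, motif and merging steps were tested on simulated data. Genes named are the 5 genes, those under or nearest to a peak in their windows, and the paralog list. The cochaperone genes at the highest sites were named after their values were seen. The members and lists were chosen with earlier results of these data known. No test was run, as the lists hold no read counts and 2 libraries per factor. The 17 alternatives cover the flank, thresholds, overlap, motif and height measures and each replicate left out.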

Additional observations from a re-analysis of the deposited data

How the results depend on the processing

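The merged HSF1 peaks in the 5 windows numbered 20 and fell to 8 at a −log10 p of at least 10, the threshold of the MYC lists, and to 14 to 14 with either HSF1 replicate left out. The merged MYC peaks numbered 17, against 8 with a flank of 10 kb and 12 to 16 with a MYC replicate left out. MYC overlapped 3 leading HSF1 sites, against 1, JMJD6, when MYC had to cover at least 50% of the HSF1 peak, and 2 to 3 with a MYC replicate left out, FXYD2 being lost without MYC replicate 2. A heat shock element was present at 4 sites, or 3 to 4 with an HSF1 replicate left out, FXYD2 being lost without replicate 1. Ranking by pileup in place of fold enrichment moved the mean percentile over the 2 HSF1 lists from 99.9 to 99.4 for FXYD2, from 99.6 to 98.7 for PROM2 and from 99.2 to 98.2 for CACNG5. By pileup, the ranks in the lists of HSF1 replicates 1 and 2 were 39 and 26 for FXYD2, against 1 and 4 by fold enrichment, 69 and 65 for PROM2, against 16 and 21, and 212 and 14 for CACNG5, against 98 and 1. With an HSF1 replicate left out, the percentile ranged from 99.91 to 99.98 for FXYD2, 99.5 to 99.8 for PROM2, 96.3 to 98.7 for RBM23, 98.5 to 99.98 for CACNG5 and 78.6 to 87.7 for JMJD6. Paralogs with an HSF1 site numbered 2, against 0 with a flank of 10 kb and 3 to 7 with a replicate left out, 7 without HSF1 replicate 2. All other alternatives stayed within 1.5 times of the main count. No paired analysis was possible because the lists hold no value where a library has no call, and the results come from no test. The 2 libraries per factor and the single IgG library limit every value, and low peaks of 5 to 9 fragments have wide counting intervals.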
